A study of Mus musculus with 4 samples.

Results

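The TGF-beta ligand Tgfb1, its receptors Tgfbr1, Tgfbr2 and Tgfbr3, the signal transducers Smad2, Smad3, Smad4 and Smad7, and the corepressors Ski and Skil were examined in naive helper T cells with and without a conditional deletion of furin. Members were all probe sets that the platform annotation assigns to 1 of these 10 symbols alone, which gave 24 of 45037 probe sets. The cells were sorted as CD4+, CD62L+ and CD44- from mice of 10 to 11 weeks. The knockout group carried a furin gene flanked by loxP sites (fur flox/flox) and CD4-cre, in which the CD4 promoter drives Cre recombinase in T cells. The control group were littermates, called wild type here, with the floxed gene alone, so both groups share the floxed allele. Each group had 2 Affymetrix mouse expression arrays numbered 1 and 2, 4 in all. Whether they came from separate animals is not stated, so p-values reflect no more than the spread among these arrays, which may be technical, and precision is limited by this small number. Which part of the furin gene is removed is not stated either.

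Furin cuts precursor proteins at basic residues, and cleavage of pro-TGF-beta1, a known substrate, separates the mature cytokine from the latency peptide that holds it inactive. Active TGF-beta binds the type II receptor Tgfbr2, which phosphorylates the type I receptor Tgfbr1, and Tgfbr1 phosphorylates Smad2 and Smad3. These join Smad4 and enter the nucleus, while Smad7 blocks the receptor and Ski and Skil hold Smad complexes in a repressed state. In T cells the pathway restrains activation and supports regulatory T cells. Cleavage is a step on protein that mRNA signals do not measure, so the comparison asks whether receptors, Smads or feedback genes differed in mRNA.

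The sequences just before the annotated starts of 3 members are shown, because these genes represent the 3 patterns described below: the ligand, whose signal differed most between array numbers, the ligand-binding receptor, with the smallest difference between genotypes, and a corepressor that was lower on both knockout arrays. They are RefSeq sequences of build GRCm38.p6, each the 250 bases before the start, written 5′ to 3′ along the gene, and capitals mark a match to the Smad box CAGAC or its complement GTCTG. The windows are chr7:25686752-25687001 on the plus strand for Tgfb1, chr9:116175364-116175613 on the minus strand for Tgfbr2 and chr4:155222536-155222785 on the minus strand for Ski.
Tgfb1: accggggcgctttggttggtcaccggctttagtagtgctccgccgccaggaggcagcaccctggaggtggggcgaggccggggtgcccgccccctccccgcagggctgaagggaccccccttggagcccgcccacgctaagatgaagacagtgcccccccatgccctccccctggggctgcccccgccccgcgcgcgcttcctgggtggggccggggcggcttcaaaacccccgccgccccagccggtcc
Tgfbr2: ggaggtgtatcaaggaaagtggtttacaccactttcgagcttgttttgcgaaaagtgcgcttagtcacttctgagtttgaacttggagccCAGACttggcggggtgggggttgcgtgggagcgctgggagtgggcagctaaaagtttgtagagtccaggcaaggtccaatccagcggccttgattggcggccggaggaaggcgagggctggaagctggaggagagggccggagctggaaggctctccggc
Ski: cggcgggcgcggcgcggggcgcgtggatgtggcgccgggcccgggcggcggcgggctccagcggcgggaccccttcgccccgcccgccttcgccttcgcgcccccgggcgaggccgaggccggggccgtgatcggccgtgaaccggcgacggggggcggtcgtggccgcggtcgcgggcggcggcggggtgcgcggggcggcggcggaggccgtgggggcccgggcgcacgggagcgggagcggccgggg

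Windows were searched for 5 of the member genes, 6 windows in all. Smad2, Smad4 and Smad7 were not searched, because their chromosome was left out for the members. No window was available for Skil or Tgfbr3. The Smad box occurred in 2 of the 6, once in Tgfbr2 and once in the second window of Tgfbr1, and it occurred in 42.2% of all 32851 windows of this length. The palindromic Smad element GTCTAGAC and the AP-1 motif TGANTCA, searched on both strands, were found in none of the 6 and in 0.167% and 6.75% of all windows. The Ski window was 87.6% G and C, that of Tgfb1 75.2% and that of Tgfbr2 58.4%, against a median of 52.4%. A match in such a short window is a description of the letters only.

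Signals are MAS5 values on a linear scale, and differences are knockout minus wild type on the scale log2(signal + 15.3), a scale that compresses changes at low signal. Of the 24 member probe sets, 20 had a mean signal above the median of all probe set means and were tested, and each gene is described by the brightest of these. The 4 dim ones were 2 of Tgfbr1 (1420893_a_at and 1420894_at) and 1 each of Tgfbr2 (1422019_at) and Smad3 (1450471_at). The arrays differed mainly by their number: the Gapdh control gave a 3′ over 5′ ratio of 4.09 on wild-type array 1 and 3.35 on knockout array 1, but 0.905 and 0.934 on the arrays numbered 2. The ratio of actin went the other way, with 1.23 and 1.20 on the arrays numbered 1 and 1.72 and 1.77 on those numbered 2. Each difference is therefore also given within arrays numbered 1 (pair 1) and within arrays numbered 2 (pair 2). T cell markers were well detected, with the summed signal of 9 measured genes from 70915 to 142729. Furin itself had 1 probe set, at 435.1 and 343.9 on wild-type arrays 1 and 2 and 391.4 and 446.9 on the knockout arrays (difference 0.11, 95% interval -0.78 to 1.0). Its groups overlapped, so this probe set, which may lie outside the deleted part, checks neither the deletion nor the labels.

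No member passed the test of genotype. In the limma fit without array number, 0 of the 20 probe sets had a Benjamini-Hochberg adjusted p under 0.05, where 0% of all 22518 tested probe sets did. The smallest unadjusted p of a member was 0.124, and 0 were under 0.05 unadjusted, against 0.644% of all probe sets. With array number as a term, which leaves 1 residual degree of freedom, 0 members passed again, against 0.00444% of all probe sets, and their smallest adjusted p was 0.562. In that fit 2 members, 1 probe set each of Smad2 and Smad3, had an unadjusted p under 0.05, against 8.12% of all probe sets. The Smad3 probe set passed the filter only through its knockout signals. The differences of the 10 genes were small, from -0.43 to 0.09 with a median of -0.23, where the median over all 10226 measured genes was -0.0023. The pair medians of the 10 genes were -0.28 and -0.11, and those of all genes 0.02 and -0.01. The median of -0.23 ranged from -0.36 to 0.0083 when 1 array was left out. With the mean of each gene's probe sets in place of the brightest, the median of the 10 was -0.05. Those means include that Smad3 probe set and 1 of Tgfbr3, which also passed the filter only through its knockout signals.

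**Figure D1:**
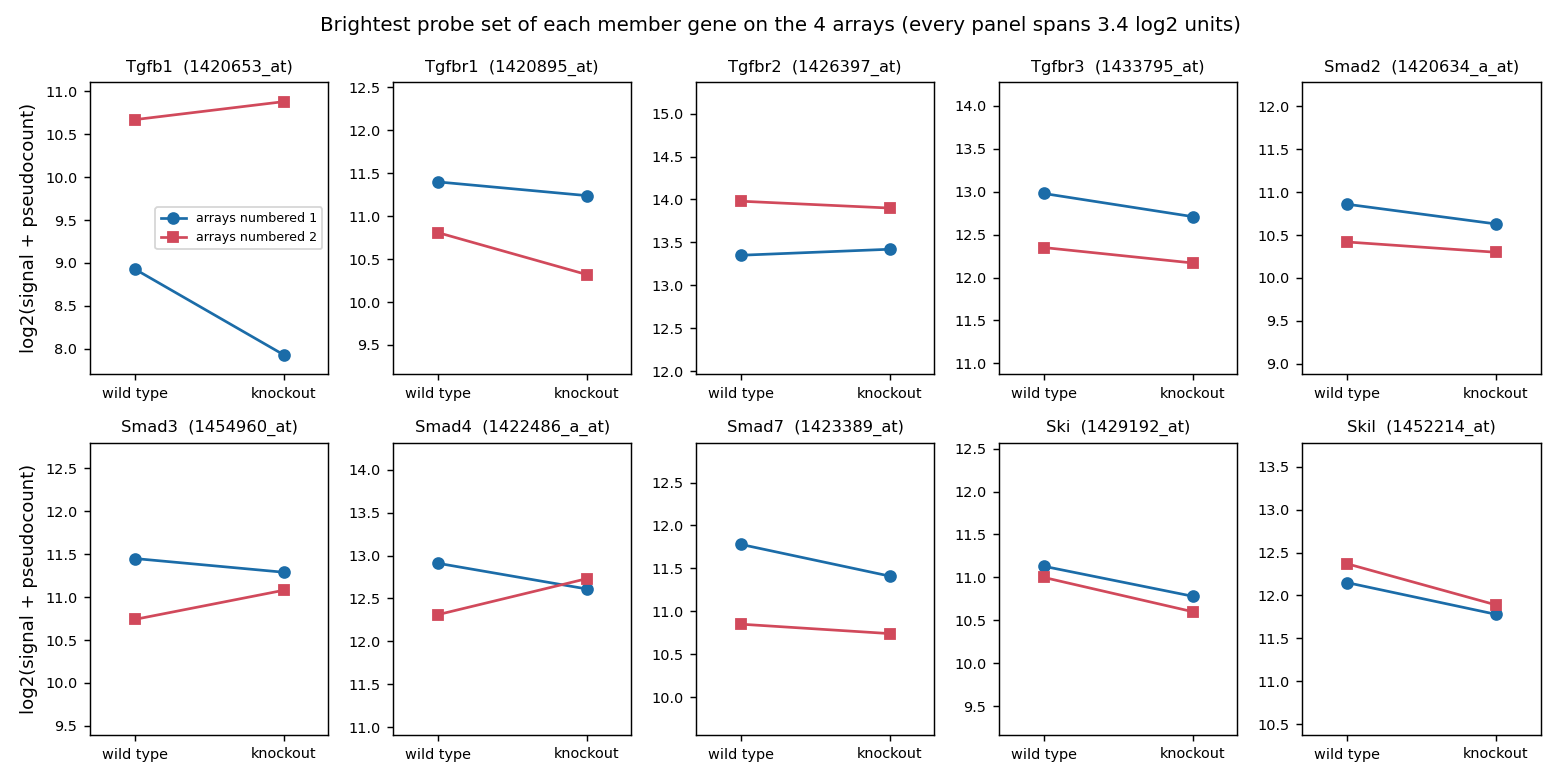
Signal of the brightest probe set of each of the 10 member genes, as log2(signal + 15.3) on the vertical axis, in the wild-type and knockout arrays; lines join arrays of the same number (blue circles, 1; red squares, 2), 1 array per point, and every panel spans the same range. Ski and Skil have both knockout arrays below both wild-type arrays, while Tgfb1 separates by array number.

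The ligand showed the widest spread. Tgfb1 (probe set 1420653_at) had signals of 473.3 and 1613.8 on wild-type arrays 1 and 2, and of 228.3 and 1875.4 on knockout arrays 1 and 2. Both arrays numbered 2 were above both arrays numbered 1 whatever the genotype, by 3.41-fold in wild type and 8.21-fold in knockout, and the genotype groups overlapped fully. The difference was -0.39 (SE 1.16, 95% interval -3.42 to 2.63, limma adjusted p = 1.0), with -1.0 in pair 1 and 0.21 in pair 2. Array number as a term narrowed the interval to -1.23 to 0.44. Without knockout replicate 1 the value was 1.08 and without knockout replicate 2 it was -1.87, so its direction is not set by these arrays. The second Tgfb1 probe set, 1445360_at, spread less, with 128.1 and 166 on the wild-type and 152.6 and 164.4 on the knockout arrays. Its difference was 0.11 (95% interval -0.77 to 0.99). The 3 genes whose profile over the 4 arrays lay nearest to that of Tgfb1, by Euclidean distance after centring each gene, were Ppp1r37 (0.273), Rassf2 (0.273) and Acta1 (0.277). All 3 shared the large step between array numbers, which follows from choosing them by profile. Acta1, for example, read 30.6 and 116.1 on the wild-type and 9.3 and 138.3 on the knockout arrays.

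Of the receptors, Tgfbr2, the ligand-binding type II receptor kinase, differed least. Its probe set 1426397_at read 10396.1 and 16124.4 in wild type and 10954 and 15272.6 in knockout. The knockout arrays lay between the wild-type ones. The difference was -0.0015 (SE 0.41, 95% interval -1.07 to 1.07) and 0.08 and -0.08 in the pairs. With array number as a term the interval was -0.48 to 0.48. The dimmer probe set 1425444_a_at, whose suffix marks probes shared by transcripts of 1 gene, read 174.6 and 286.7 in wild type and 254.5 and 359.8 in knockout. It was higher in both pairs, by 0.51 and 0.31 (difference 0.41, 95% interval -0.67 to 1.49), with groups that overlapped. Its array-number interval was -0.07 to 0.89.

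Tgfbr1, the type I receptor kinase that phosphorylates Smads, had signals of 2684.9 and 1775.1 in wild type and 2401.2 and 1259.6 in knockout (1420895_at). Knockout was lower within both pairs, at -0.16 and -0.49, but knockout array 1 lay above wild-type array 2. The difference was -0.33 (SE 0.48, 95% interval -1.57 to 0.92). The other 2 Tgfbr1 probe sets did not exceed a signal of 43 on any array. Tgfbr3, betaglycan, a co-receptor that presents ligand, read 8036.1 and 5190.5 in wild type and 6669.5 and 4590.3 in knockout (1433795_at). It too was lower in both pairs, at -0.27 and -0.18, with overlapping groups and a difference of -0.22 (SE 0.42, 95% interval -1.31 to 0.86). Its second probe set, 1425620_at, gave -0.37 and 0.71 in the pairs, at signals from 24.7 to 150.4. The wild-type mean of this probe set, 61.1, was below the filter level of 65.4, so it passed the filter only through its knockout signals.

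**Figure D2:**
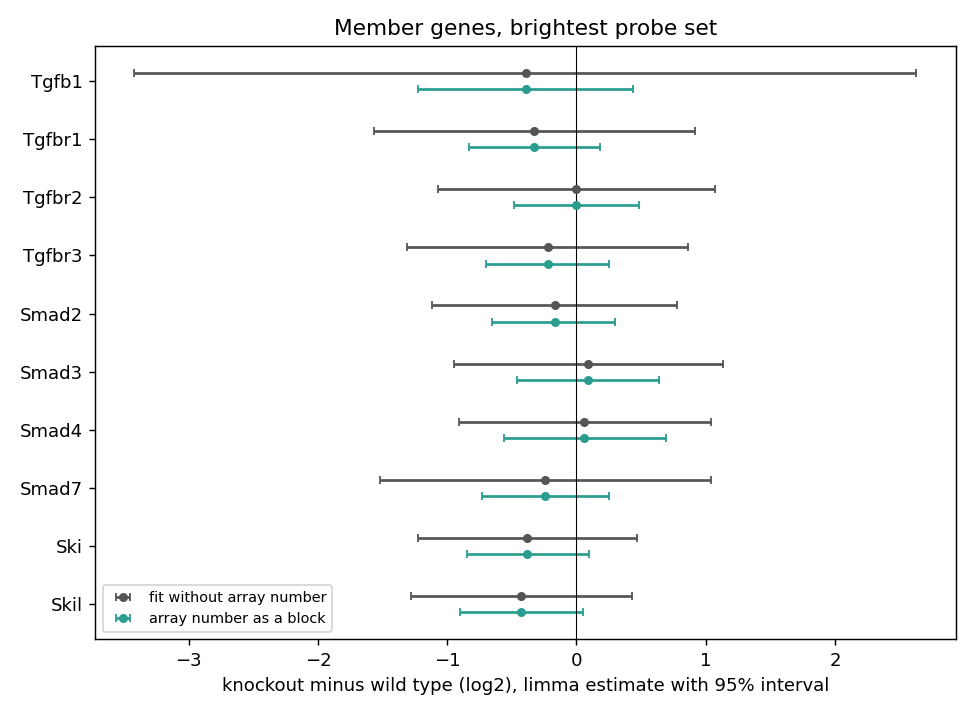
Knockout minus wild-type difference (log2) of the brightest probe set of each member gene with its 95% interval from limma, without array number (grey) and with array number as a term (green), 2 arrays per group. Every interval contains 0, and the term narrows each one, most for Tgfb1.

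The receptor-regulated Smads gave small differences in their brightest probe sets. Smad2 (1420634_a_at) read 1838 and 1354 in wild type and 1565.7 and 1247.3 in knockout, lower in both pairs at -0.23 and -0.12. Its groups overlapped, and the difference was -0.17 (SE 0.36, 95% interval -1.12 to 0.78). A dimmer Smad2 probe set, 1442062_at, read 309.5 and 241.6 in wild type and 210.3 and 65.6 in knockout. Here both knockout arrays lay below both wild-type arrays. This was the largest difference among the tested members, -1.10 (SE 0.59, 95% interval -2.63 to 0.44), with -0.53 and -1.67 in the pairs. In the limma fit with array number its interval was -1.89 to -0.30 and its adjusted p was 0.562, or 0.0768 with a trended prior as well. The 2 probe sets of Smad2 thus shared a sign but not a size.

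Smad3 (1454960_at) read 2780 and 1690.5 in wild type and 2488 and 2149.7 in knockout. The knockout arrays lay between the wild-type ones, the pairs disagreed in sign, at -0.16 and 0.34, and the difference was 0.09 (SE 0.40, 95% interval -0.95 to 1.13). The dim Smad3 probe set 1450472_s_at, whose suffix marks probes that can match transcripts of more than 1 gene, read 25.2 and 80.6 in wild type and 59.1 and 118.7 in knockout. It was higher in both pairs, by 0.88 and 0.48, with overlapping groups, and in the limma fit with array number it had an unadjusted p of 0.0200 and an adjusted p of 0.565.

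Smad4, the partner common to all receptor-regulated Smads, had 3 probe sets, each lower in pair 1 and higher in pair 2. The brightest, 1422486_a_at, read 7671.5 and 5062.2 in wild type and 6241.7 and 6800.1 in knockout. The groups overlapped and the pairs differed in sign, at -0.30 and 0.42, for a difference of 0.06 (SE 0.37, 95% interval -0.91 to 1.04). The other 2, 1422487_at and 1422485_at, had differences of -0.18 and -0.10, with -0.41 and -0.23 in pair 1 and 0.05 and 0.02 in pair 2. In all 3 the highest reading was on wild-type array 1.

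Smad7, the inhibitory Smad that is itself induced by TGF-beta as feedback, read 3512.3 and 1832.7 in wild type and 2713.7 and 1695.3 in knockout (1423389_at). It was lower in both pairs, at -0.37 and -0.11, but the step between array numbers was larger than either, and the groups overlapped. The difference was -0.24 (SE 0.49, 95% interval -1.52 to 1.04). The second probe set, 1443771_x_at, read 285.9 and 407.4 in wild type and 447.4 and 393.9 in knockout, with pair values of 0.62 and -0.05. Its suffix marks probes that may also bind other sequences, and the mean of the 2 probe sets was 0.02.

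The corepressors Ski and Skil had the smallest standard errors among the brightest probe sets, and were the only 2 genes in which these kept the genotype groups apart. Ski, which binds Smad complexes and recruits repressors of transcription, read 2221.1 and 2039.7 in wild type and 1740.9 and 1534.5 in knockout (1429192_at). Both knockout arrays lay below both wild-type arrays. The mean signal was 2130 ± 128 (SD, n = 2) in wild type and 1638 ± 146 (SD, n = 2) in knockout. The difference was -0.38 (SE 0.33, 95% interval -1.23 to 0.47, limma adjusted p = 1.0), with -0.35 and -0.41 in the pairs. The second Ski probe set, 1426373_at, read 1942.5 and 2266.1 in wild type and 1516.8 and 1608.5 in knockout, again without overlap. Its difference was -0.42 (95% interval -1.28 to 0.43), with -0.35 and -0.49 in the pairs. The 2 Ski probe sets therefore gave knockout to wild-type ratios from 0.710 to 0.784 in all 4 pair comparisons.

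Skil, which encodes SnoN, a relative of Ski that is degraded on TGF-beta signalling and then induced by it, read 4543 and 5283.5 in wild type and 3494.2 and 3781.6 in knockout (1452214_at). The groups did not overlap, and the means were 4913 ± 524 (SD, n = 2) and 3638 ± 203 (SD, n = 2). The difference was -0.43 (SE 0.33, 95% interval -1.28 to 0.43, limma adjusted p = 1.0), with -0.38 and -0.48 in the pairs. With array number as a term the interval was -0.90 to 0.05 and the limma adjusted p 0.632. The much dimmer Skil probe set 1422054_a_at went the other way in both pairs, by 0.26 and 0.48, at 104.7 and 139.9 in wild type and 128.5 and 200.6 in knockout. The difference of the brightest probe set was between -0.54 and -0.32 with 1 array left out, and that of Ski between -0.47 and -0.29. With the mean of both probe sets the Skil value was -0.03.

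**Figure D3:**
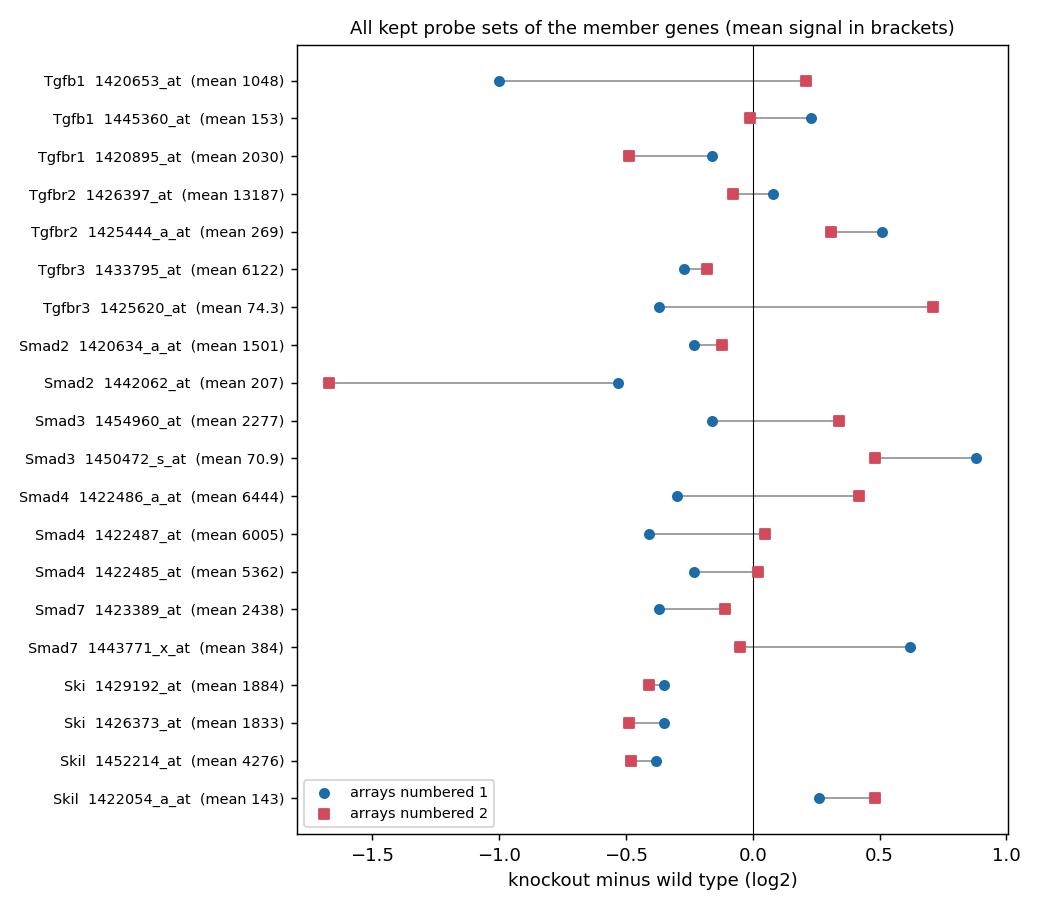
Knockout minus wild-type difference (log2, horizontal axis) of each of the 20 tested member probe sets within arrays numbered 1 (blue circles) and 2 (red squares), 1 comparison of 2 arrays per point, with the mean signal in brackets. Both Ski probe sets lie to the left of 0 in both pairs, whereas those of Skil lie on opposite sides.

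Counted over the 10 genes, 6 were lower in both pairs (Tgfbr1, Tgfbr3, Smad2, Smad7, Ski and Skil), against 27.2% of all measured genes, and 0 were higher in both, against 27.6%. In the other 4 the pairs had opposite signs. In 9 of the 10 knockout was lower in pair 1 and in 7 it was lower in pair 2. Shares over all genes are not given for these 2 counts, and the medians over all measured genes were 0.02 and -0.01 in the pairs. Both knockout arrays lay below both wild-type arrays in 2 of the 10 genes, against 7.93% of all genes, and above them in 0, against 8.56%. Over the 20 probe sets, of which several share a gene, 8 were lower in both pairs, against 30.2% of all probe sets, and 3 were higher, against 25.3%. Those 3 include the dim Smad3 probe set that passed the filter only through its knockout signals. Groups did not overlap in 4 of the 20, all with knockout lower, against 9.48% of all probe sets (and 7.58% with knockout higher), and those 4 belong to Ski, Skil and Smad2. Kept probe sets of opposite sign occurred in 6 of the 9 genes that had more than 1. These include Tgfbr2, whose brightest probe set was at -0.0015, and Tgfbr3, whose second probe set passed the filter only through its knockout signals. The share over all genes is not given, so this count cannot be called particular to the members. For 8 of the 10 genes the mean step between array numbers was larger than the difference between genotypes, the exceptions being Ski and Skil. Array number marked the whole table, with a correlation of 0.80 between same-numbered arrays after subtracting group means. The 8 of 10 therefore cannot be called particular to the members.

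**Figure D4:**
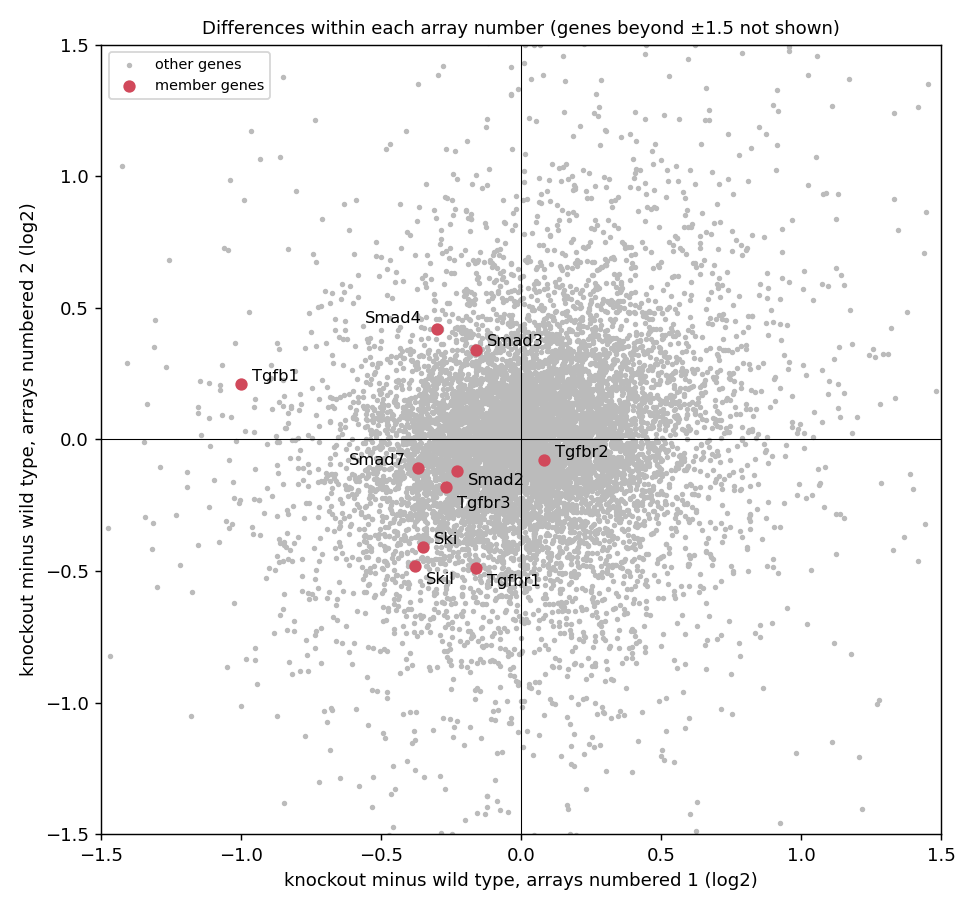
Knockout minus wild-type difference (log2) within arrays numbered 1 (horizontal) and within arrays numbered 2 (vertical) for the member genes (red, named) and all other measured genes (grey), brightest probe set of each gene. Of the 10 members 6 lie below 0 on both axes, near the dense part of the grey cloud, and Tgfb1 stands apart at -1.0 and 0.21.

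Other genes of the pathway were described from lists of known components. None of these genes passed limma without array number (0% of all probe sets) or with it (0.00444%). The counts of each list stand against 27.6% of all measured genes that were higher and 27.2% that were lower in both pairs, and 8.56% and 7.93% with knockout above or below wild type without overlap. Among genes of latency and activation, 4 of 12 on the array were measured above the filter, and 2 were higher and 0 lower in both pairs. Ltbp3, a binding protein that holds latent TGF-beta in the matrix, read 53.7 and 72.2 in wild type and 107 and 74.2 in knockout (difference 0.43, pairs 0.83 and 0.03). The mean of its wild-type signals was below the filter level, so Ltbp3 passed the filter only through its knockout signals. Itgav, the integrin chain that takes part in release of active ligand, differed by 0.13 (pairs 0.09 and 0.18). The ligands Tgfb2 and Tgfb3 were below the filter.

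Of 7 other receptors of the superfamily, 2 were higher and 3 lower in both pairs. Bambi, a decoy receptor without kinase activity, read 52.3 and 93.9 in wild type and 120.4 and 146.8 in knockout, so its groups did not overlap (difference 0.79, SE 0.40, 95% interval -0.25 to 1.83, pairs 1.01 and 0.57). Eng, endoglin, another co-receptor, was at 0.56 (pairs 0.93 and 0.20), and Bmpr1a, a type I receptor for bone morphogenetic proteins, at -0.58 (pairs -0.74 and -0.41); the groups of both were apart. Signals of these 3 genes were at most 200.6. Both knockout signals of Bmpr1a, 62.5 and 55.6, were below the filter level of 65.4. Bmpr1a, which is among the 3 counted as lower, thus passed the filter only through its wild-type signals. Smad5, which serves that branch, read 2000.7 and 1322.7 in wild type and 1493.7 and 905 in knockout (difference -0.48, pairs -0.42 and -0.54). Its 3 kept probe sets ran from -0.64 to 0.35.

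Among 16 ligases, phosphatases and anchors that act on Smads, 7 were lower and 0 higher in both pairs, with a median of -0.06, and all 16 had overlapping groups. The ubiquitin ligases Wwp2, Rnf111, which marks Ski and Skil for degradation, and Smurf2 were at -0.37 (pairs -0.52 and -0.23), -0.34 (pairs -0.49 and -0.19) and -0.29 (pairs -0.36 and -0.23). The 4 kept probe sets of Wwp2 ran from -0.87 to 0.04, and the 3 of Smurf2 from -0.53 to -0.29. Among 10 nuclear cofactors 6 were lower and 2 higher in both pairs, with a median of -0.11. Runx1 was at -0.36, its partner Cbfb at -0.25 and the acetyltransferase Ep300 at -0.24. That Runx1 value was the lowest of its 6 kept probe sets, which ran up to 0.18. Of 9 genes of the kinase route outside the Smads, 3 were lower and 2 higher. Map3k7, the kinase TAK1, was at -0.47 (pairs -0.78 and -0.16), its binding partner Tab1 at -0.46 (pairs -0.41 and -0.51) and Map2k6 at -0.19 (pairs -0.26 and -0.12). The 4 kept probe sets of Map3k7 ran from -0.47 to 0.28, and their mean gave -0.05.

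Lists of target genes were examined next. Of 14 measured genes listed as induced by TGF-beta, 6 were lower and 1 was higher in both pairs, and the median was -0.11 (-0.22 and -0.13 in the pairs). The list includes the members Smad7, Ski and Skil, which are among the 6 and so repeat the member values above. Tgfbi, an induced matrix protein, read 40.8 and 45.1 in wild type and 55.2 and 194.9 in knockout (difference 1.06, 95% interval -0.51 to 2.64). Tgfbi is the 1 gene counted as higher, and it passed the filter only through its knockout signals. Nt5e, the ectoenzyme CD73, was at -0.57 (pairs -0.71 and -0.43). Of 9 measured genes that TGF-beta is known to repress in T cells, 5 were higher and 3 lower in both pairs, with a median of 0.10 in each pair. Gzma, a granule protease, read 195.4 and 89.6 in wild type and 521.2 and 468.4 in knockout, a difference of 1.78 (SE 0.46, 95% interval 0.58 to 2.97). Its limma adjusted p was 1.0 without array number, 0.415 with it and 0.000138 with a trended prior as well. Tbx21, the Th1 regulator T-bet, read 54.4 and 62.5 in wild type and 116 and 179.9 in knockout (difference 1.12, SE 0.37, limma adjusted p = 1.0), and Klrg1, a receptor of effector cells, was at 0.57 (pairs 0.91 and 0.24). Tbx21, which is among the 5 counted as higher, also passed the filter only through its knockout signals. Listed genes below the filter were not counted, so the counts of both target lists depend on it. With a trended prior and array number, where 1.14% of all probe sets were called, Gzma was the 1 call among these target genes and members.

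**Figure D5:**
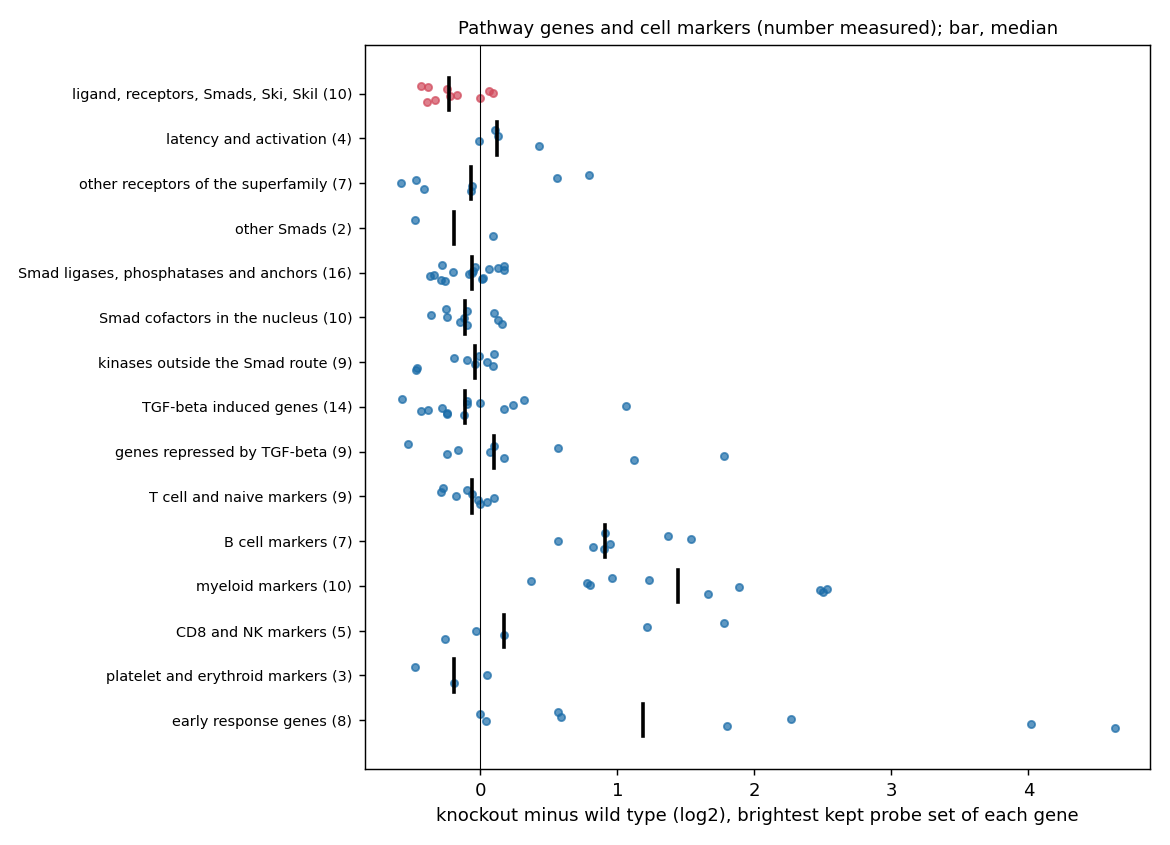
Knockout minus wild-type difference (log2, horizontal axis) of every measured gene, 1 point each by its brightest probe set, in the 10 member genes (red) and in the lists of other pathway genes, cell markers and early response genes (blue); bars are medians. The pathway lists have medians between -0.23 and 0.12, and the B cell, myeloid and early response lists lie well to the right.

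Markers of other cells and early response genes differed between the same arrays, and their part in the values above was not tested. All 10 measured myeloid markers were higher in both pairs (median 0.83 in pair 1 and 2.20 in pair 2), with summed signals of 1316 and 4040 in wild type and 2084 and 14452 in knockout. The filter uses the mean over all 4 arrays, so a gene high only in knockout can pass it, and the counts given here depend on that. Among the 10, Camp (3.0 and 85.3 in wild type) and Ngp (28.1 and 102.1) passed only through their knockout signals. The marker and early response counts stand against 27.6% of all measured genes higher and 27.2% lower in both pairs. The myeloid markers below the filter, Itgam (pairs -0.77 and 0.41) and Cd14 (pairs 0.91 and -0.78), had pairs of opposite sign. Of 7 measured B cell markers 6 were higher (medians 0.29 and 1.69), with sums of 833 and 3735 in wild type and 1334 and 13894 in knockout. Below the filter, Ebf1 was higher in both pairs (0.22 and 1.08) and Pax5 had pairs of opposite sign (-0.99 and 0.56). Of 8 early response genes 6 were higher (medians 1.65 and 0.77), with sums of 12729 and 15691 in wild type and 41782 and 33629 in knockout. Of 5 measured markers of CD8 T and NK cells, which include Gzma, 3 were higher and 0 lower in both pairs (sums of 2591 and 2726, then 3208 and 3200). Ncr1, an NK cell gene of the same list that was below the filter, was lower in both pairs (-0.54 and -0.83). Of 9 T cell markers 4 were lower and 0 higher (median -0.06). Of 7 platelet and erythroid markers on the array 3 were measured, the platelet genes Itga2b and Gp1bb and the erythroid gene Alas2, and platelets store TGF-beta1. Their summed signals were 193 and 839 in wild type and 144 and 642 in knockout, and 1 was lower and 0 higher in both pairs (medians -0.27 and -0.10). The sums are not of platelet genes alone, since Alas2 read 3.8 and 430.7 in wild type and 4.9 and 200.4 in knockout. Pf4, Ppbp and Gp9, also of platelets, were below the filter. In such sorted but bulk samples, fewer cells of a type and less RNA per cell cannot be told apart.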

How the data were processed

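The authors deposited an intensity for each probe set and array, with MAS5 named in the submitters' processing notes; the values are on a linear scale, and the MAS5 version is not given in the sources used here. Biotinylated cRNA was made from 5 micrograms of total RNA, per the labels' protocols. The 4 arrays had the same trimmed mean, 500.0 with 2% of values trimmed at each end. Without detection calls, signal over background is unknown.

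Of 45101 probe sets, 64 controls were left out. Of the others, 34945 had 1 gene, 932 several and 9160 none in the platform annotation, and 34741 symbols were matched through Entrez identifiers to RefSeq (GRCm38.p6). Signals were taken as log2(signal + 15.3), 15.3 being the 25% quantile. The 22518 probe sets with a mean signal above 65.4, the median of such means, were tested with limma 3.58.1 in R 4.3.3 (two-sided, Benjamini-Hochberg over all of them, threshold 0.05). Group differences were fitted without array number, and with it as an alternative.

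Members and lists were chosen with earlier results of these data known. Named besides members are Furin, up to 3 genes per pathway list with the largest difference of equal sign in both pairs, and the 3 nearest profiles to Tgfb1; marker and early response lists are given as counts, medians and sums. Pf4, Ppbp, Gp9, Tgfb2 and Tgfb3, given only as below the filter, are named outside this rule. Also outside it are Itgam, Cd14, Camp, Ngp, Ebf1, Pax5, Ncr1, Itga2b, Gp1bb, Alas2 and Jun.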

Additional observations from a re-analysis of the deposited data

How the results depend on the processing

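With 1 array left out, genotype and array number are mixed and 1 group has a lone sample, assumed to vary like the other group. The median difference of the 10 member genes then ranged from -0.36 to 0.0083, the latter without wild-type replicate 1. The ranges were -1.87 to 1.08 for Tgfb1, -0.79 to 0.14 for Tgfbr1, -0.32 to 0.31 for Tgfbr2, -0.54 to 0.09 for Tgfbr3, -0.39 to 0.05 for Smad2, -0.26 to 0.45 for Smad3, -0.24 to 0.36 for Smad4 and -0.71 to 0.23 for Smad7. Only Ski and Skil kept their sign among members. Among other named genes the sign turned for Itgav (-0.30 to 0.56), Rnf111 (-0.75 to 0.08), Runx1 (-1.20 to 0.48), Cbfb (-0.52 to 0.03), Ep300 (-0.64 to 0.16), Map3k7 (-0.97 to 0.03), Furin (-0.05 to 0.27), Ppp1r37 (-1.72 to 0.86), Rassf2 (-1.72 to 1.20) and Acta1 (-1.66 to 0.98).

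The labels give the arrays of both groups the numbers 1 and 2 but no shared animal or day. The correlation between same-numbered arrays, after subtracting group means, was 0.80 over probe sets, which are not independent. With the replicate block limma called 1 probe set, of Jun, and 257 with a trended prior as well, against 0 without it; with the filter on the mean log2 value, an alternative added after the data were seen, the block called 6. Member genes called stayed at 0 in all 16 settings run, the reported one included. Median centring turned Tgfbr2 to 0.03 and quantile normalization turned Smad4 to -0.01. With the mean of a gene's kept probe sets Tgfbr2 was at 0.20, Smad4 at -0.07 and Smad7 at 0.02. Above the 75th percentile of mean signal, 0 member probe sets were higher in both pairs, against 3 as reported and 3 or 4 under the other filters, scalings and pseudocounts; the 3 reported are too dim for that filter. The cause of the other changes was not tested.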
